A study of Caenorhabditis elegans with 17 samples.

Results

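This comparison sets Caenorhabditis elegans fed hsf-1 RNAi bacteria (n = 4 libraries) against animals fed bacteria with the empty vector L4440 (n = 5). These are 9 of the 17 libraries of a study that also fed ash-2 RNAi (n = 4) and ash-2 + hsf-1 RNAi (n = 4). The members were taken by their RNAi label, and 13084 genes with an FPKM (fragments per kilobase of transcript, scaled to the mapped fragments of a library) of at least 1 in at least 4 of the 17 libraries were tested. Every animal carried rmIs133 [unc-54p::Q40::YFP], in which the promoter of a myosin heavy chain gene makes a polyglutamine tract fused to YFP in body wall muscle. Controls therefore carry the aggregation-prone protein as well, and no library here comes from animals without it. Eggs were laid on the RNAi bacteria (E. coli HT115 (DE3)), and whole day 1 adults were frozen after 96 h at 20 °C. Parents of the L4440 and hsf-1 animals had not been kept on ash-2 RNAi, unlike parents of both other groups. RNA (1 to 5 µg per sample) went into stranded mRNA libraries. The labels call the libraries biological replicates, and p-values measure the spread between them.

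HSF-1 is the heat shock transcription factor of the worm. It binds heat shock elements in promoters of chaperone genes, drives their burst of transcription in heat, and also serves growth and development at normal temperature. In worms with polyglutamine proteins, chaperones under HSF-1 are known to limit aggregation, and hsf-1 RNAi is a common way to lower that capacity. Feeding RNAi supplies double-stranded RNA that lowers the matching transcript in most tissues.

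One library stood apart. At an FPKM of 1 or more, L4440 libraries held 11459 to 12664 genes and hsf-1 replicates 1 to 3 held 12804 to 13066, while hsf-1 replicate 4 held 10745. Relative to the L4440 mean, the median of all tested genes was 0.15 to 0.21 (log2) in hsf-1 replicates 1 to 3 and -0.56 in replicate 4. Where leaving it out changes the call of a gene named below, the value without it is given as well. Markers of neurons, body wall muscle, intestine, germline, oocytes, sperm, epidermis and pharynx were all present in these whole animals, with no marker at 0 in all 9 libraries. In bulk RNA, fewer cells of a type and less RNA per cell cannot be told apart.

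The knockdown itself was read from hsf-1 (Y53C10A.12), which WBcel235 places on chromosome I from 11953509 to 11961984. Its level was 31.3, 33.8, 27.7, 30.03 and 26.5 FPKM in L4440 replicates 1 to 5, and 14.6, 13.01, 15.1 and 7.33 FPKM in hsf-1 replicates 1 to 4. All 4 RNAi libraries lay below all 5 controls, at 41.9% of the control mean, and replicate 4 was the lowest. An exact two-sided permutation test of the mean FPKM gave p = 0.0159, the smallest this design can give, and 0.0317 adjusted over hsf-1 and ash-2. In limma's test across all genes the log2 change was -1.27 ± 0.29 (SE; adjusted p = 0.00858), and -1.04 without replicate 4. The targeted gene thus went with the labels of all 4 libraries, although reads from the feeding construct could add to these levels. Transcripts of its partners did not pass. hsb-1, which encodes a protein that binds HSF-1 and holds it inactive, was at 114 ± 12.23 FPKM against 130 ± 6.47 (SD; adjusted p = 0.511), and ddl-1 and ddl-2, of the same inhibitory complex, had log2 changes of -0.24 ± 0.15 and -0.28 ± 0.32. ash-2, not targeted here, was at 16.9, 17.4 and 16.8 FPKM in hsf-1 replicates 1 to 3 and at 5.57 in replicate 4, against 14.1 to 19.1 in L4440 (exact permutation test, p = 0.635).

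Few chaperone transcripts passed the test. Of 9 heat-inducible genes (the hsp-16 small heat shock proteins and inducible HSP70 genes) none was called at an adjusted p under 0.05, where 10.6% of all tested genes were. Their median log2 change was -1.09, against -0.03 over all tested genes, and -0.54 without replicate 4. hsp-16.48 was at 19.2, 15.8, 12.22, 11.19 and 15.2 FPKM with L4440, and at 5.57, 4.88, 4.77 and 4.34 FPKM with hsf-1 RNAi. The RNAi range lay below the control range, as for 6.92% of all tested genes, and the change of -1.48 ± 0.50 missed the threshold (adjusted p = 0.0747, and 0.000239 to 0.164 over the alternatives). It was -1.43 without replicate 4. The neighbouring hsp-16.1 (6.49 ± 2.17 against 15.2 ± 5.98 FPKM) and hsp-16.11 (6.23 ± 2.05 against 13.6 ± 5.29 FPKM) also had ranges below those of L4440 and did not pass, with adjusted p of 0.0895 and 0.119. These genes are near-identical copies in pairs, so reads can be shared between them and a single member stands partly for its relative. For the inducible HSP70 pair F44E5.4 and F44E5.5, also near-identical copies, L4440 libraries alone ran from 10.5 to 50.3 FPKM (F44E5.4) and the hsf-1 libraries from 1.501 to 16.18. hsp-70 was near 1 FPKM in both groups (0.811 ± 0.535 against 1.26 ± 0.472). hsp-16.2, hsp-16.41 and hsp-16.49 had log2 changes of -0.73, -0.82 and -1.09, none past the test. The count of 0 depended on the settings: 1 of the 9 fell under median-of-ratios scaling, 3 in a fit of the 9 compared libraries alone, 4 with array weights, 5 after quantile normalization and all 9 with the number of detected genes as a covariate. The authors' deposited table marks hsp-16.48, hsp-16.49, hsp-16.1 and hsp-16.11 as lower.

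**Figure D1:**
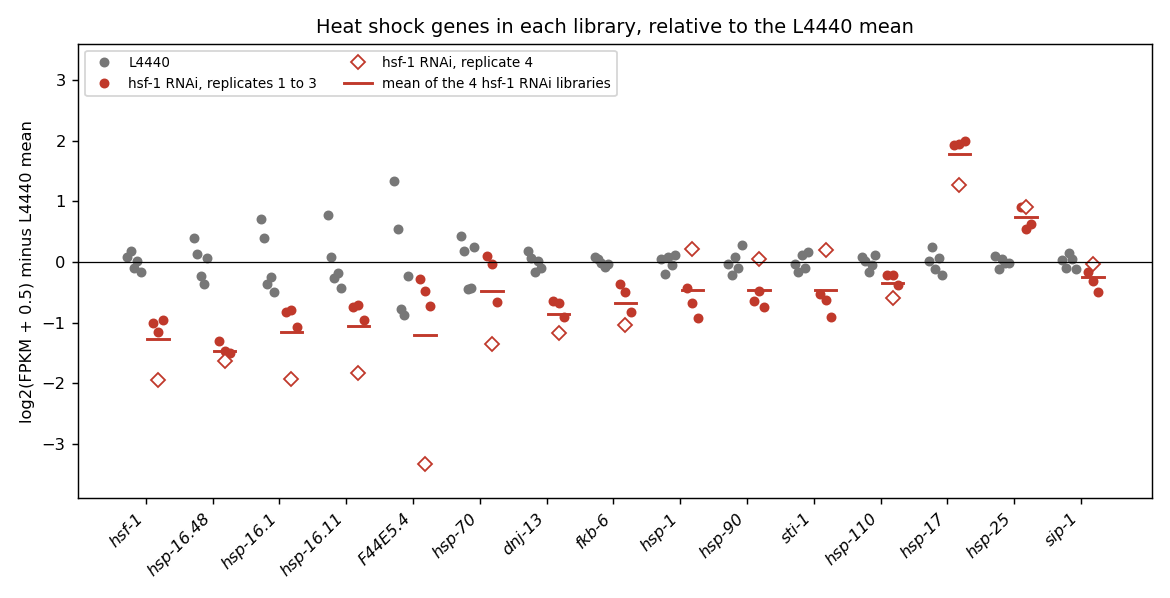
Level of hsf-1 and 14 heat shock genes in each library (vertical axis: log2(FPKM + 0.5) minus the mean of the 5 L4440 libraries), with L4440 in grey, hsf-1 RNAi replicates 1 to 3 in filled red, replicate 4 as an open diamond and a red bar at the mean of the 4. hsp-17 lies above control in every hsf-1 library and dnj-13 below, while for hsp-1, hsp-90 and sti-1 replicate 4 lies above its 3 partners, within the control range or above it.

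Among constitutive chaperones, 1 of 29 DNAJ genes and 1 of 15 genes of the cytosolic HSP70 and HSP90 machinery fell (3.45% and 6.67%, where 2.91% of all tested genes fell). With the covariate it was 22 and 6, and with array weights 2 and 8. dnj-13, an HSP40 co-chaperone that delivers clients to HSP70, was at 167, 155, 132, 148 and 137 FPKM with L4440 and at 94.2, 91.4, 78.3 and 64.8 FPKM with hsf-1 RNAi. Every RNAi library lay below every control, and the change was -0.85 ± 0.16 (adjusted p = 0.00195), with the call kept in all 21 alternatives run. fkb-6, an immunophilin that works with HSP90, fell by 0.68 ± 0.20 (adjusted p = 0.0393). That call was lost in 10 of 21 alternatives (adjusted p from 0.000134 to 0.124), among them without replicate 4 (-0.56).

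The calls of hsp-1 and sti-1 depended on replicate 4, and each gene passed in 5 of 21 alternatives. For hsp-1 these included quantile normalization, the covariate and array weights, with replicate 4 kept. The constitutive HSP70 gene hsp-1 was at 2166, 1825, 2226, 2016 and 2266 FPKM with L4440, at 1554, 1303 and 1098 FPKM in hsf-1 replicates 1 to 3, and at 2432 FPKM in replicate 4. Replicates 1 to 3 lay below all controls and replicate 4 above them. Its change was -0.46 ± 0.18 (adjusted p = 0.138), and -0.68 without replicate 4 (adjusted p = 0.0041, with 1.12e-05 to 0.502 over all alternatives). sti-1, which links HSP70 to HSP90, followed the same order, with 138, 130 and 106 FPKM in replicates 1 to 3, 231 in replicate 4 and 179 to 224 with L4440, with a change of -0.47 ± 0.18 (adjusted p = 0.115). Without replicate 4 it was -0.69 (adjusted p = 0.00236, with 8.52e-06 to 0.466 over all alternatives). hsp-90 had a change of -0.46 ± 0.22 with all libraries and -0.63 without replicate 4, and missed the threshold both times (adjusted p = 0.244 and 0.0724, with 0.000134 to 0.519 over the alternatives). The chaperonin gene cct-1, a subunit of the ring that folds actin and tubulin, was 1 of 14 CCT and prefoldin genes to pass without replicate 4 (-0.35, adjusted p = 0.0419, with 0.000214 to 0.692 over the alternatives), and none passed with it at the settings used here. With all libraries 2 of the 14 fell after quantile normalization, 3 with the covariate and 8 with array weights. hsp-110, an HSP70 nucleotide exchange factor, had a range below control, with means of 125 ± 15.07 and 159 ± 12.55 FPKM, and did not reach the threshold (adjusted p = 0.225).

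Of 7 tested small heat shock proteins of the constitutive kind (10 in the table), 2 rose and none fell (median 0.22), and 1 rose under median-of-ratios scaling. hsp-17 was at 20.2, 23.7, 18.4, 21.03 and 17.03 FPKM with L4440 and at 77.4, 78.5, 80.9 and 49.1 FPKM with hsf-1 RNAi. All 4 RNAi libraries were higher, replicate 4 least, and the change was 1.79 ± 0.21 (adjusted p = 2.65e-05). hsp-25 was at 194 to 252 against 123 to 142 FPKM (0.74 ± 0.16, adjusted p = 0.0055), a call lost under median-of-ratios scaling. sip-1, hsp-12.2 and hsp-43 had changes of -0.25, 0.29 and -0.13, none past the test. Stress responses of other compartments had no called member: 15 mitochondrial genes (median -0.27, with hsp-6 at 255 ± 27.3 against 325 ± 16.9 FPKM and hsp-60 at 91.4 to 131 against 135.3 to 189.5) and 21 genes of the endoplasmic reticulum (median -0.23, with the BiP gene hsp-4 at -0.34 ± 0.12, adjusted p = 0.0833). Without replicate 4 these medians were -0.03 and -0.07. With the covariate 7 of the mitochondrial and 8 of the endoplasmic reticulum genes fell, and with array weights 2 and 2 rose and 4 and 5 fell.

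Over all genes, 1391 of 13084 passed (10.6%), 1010 of them higher (7.72% of those tested) and 381 lower (2.91%). An adjusted p under 0.05 together with a change of at least 1 (log2) left 878 (6.71%). Without replicate 4 there were 1877 calls (14.3%), 1512 higher (11.6%) and 365 lower (2.79%), and 1246 genes were called both times. Of all calls 27.4% were lower, against 46.1% of 2157 calls after quantile normalization and 64.5% of 5181 with the number of detected genes as a covariate. In all 4 hsf-1 libraries and in no other, 6 tested genes reached an FPKM of 1, so that the filter itself required a difference there. Genes that passed only through libraries of both groups with hsf-1 RNAi come on top and were not counted. pals-28 is one, at means of 0.0706 FPKM with L4440, 0.0901 with ash-2 RNAi, 2.31 with hsf-1 RNAi and 2.37 with both. 615 of the calls had no gene symbol.

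**Figure D2:**
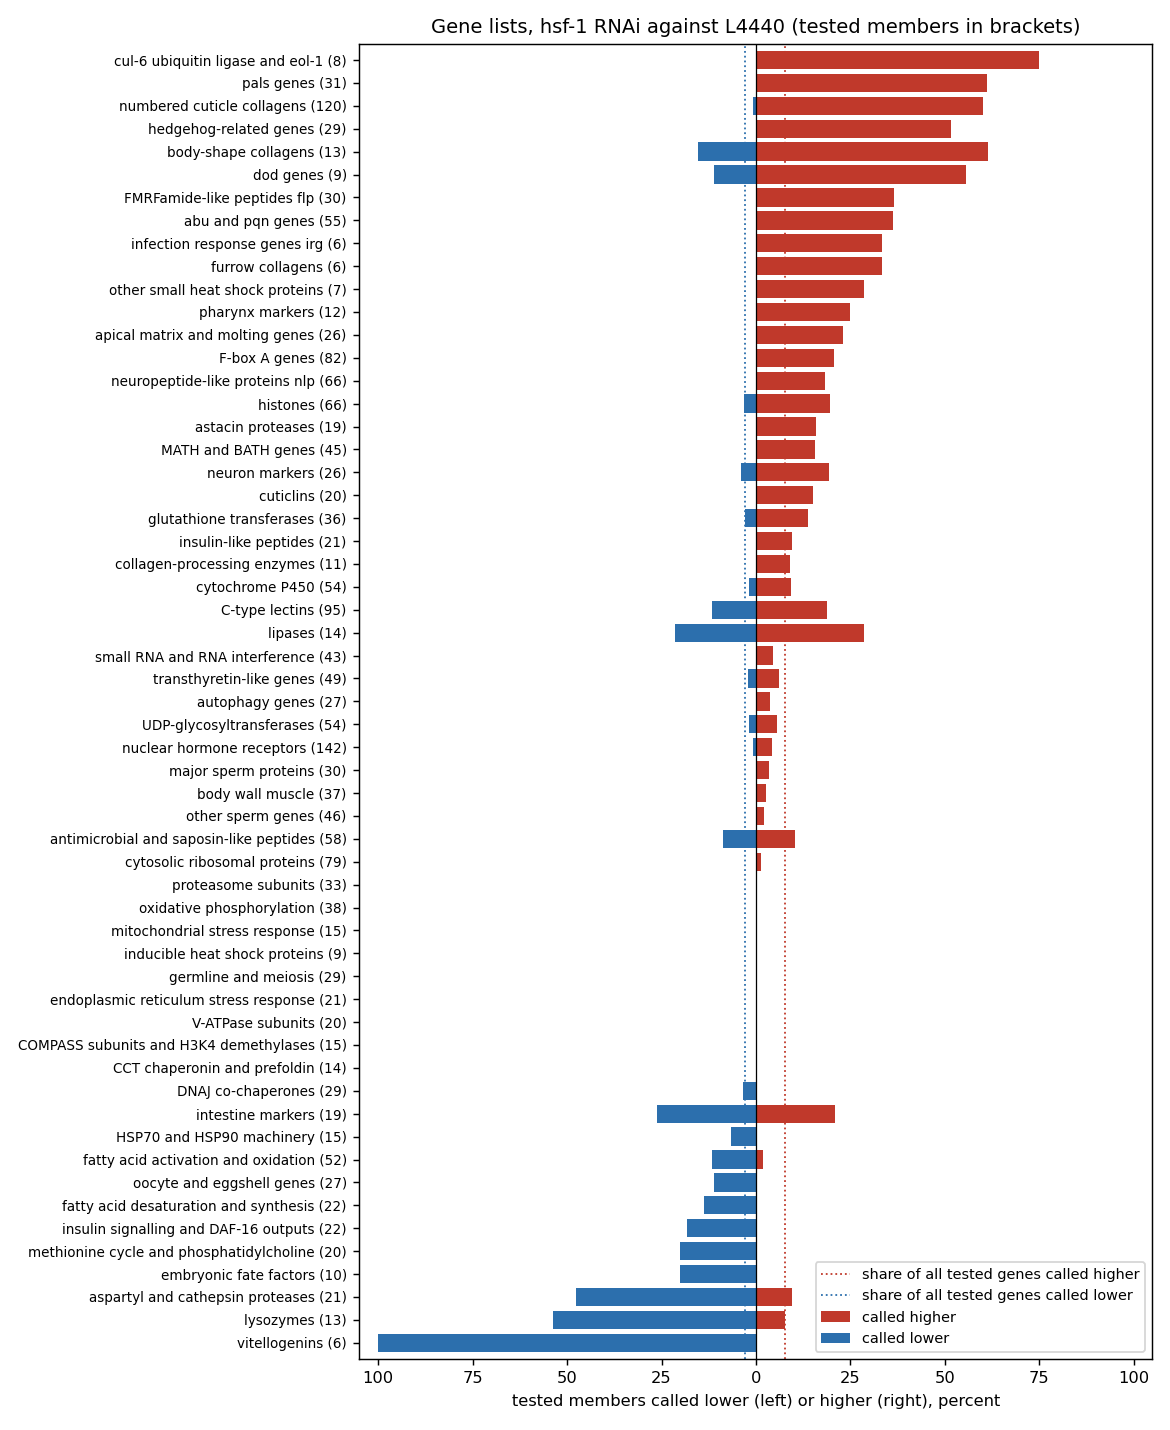
Share of the tested members of each gene list called higher (right, red) or lower (left, blue) with hsf-1 RNAi, in percent, with the shares over all tested genes as dotted lines at 7.72% and 2.91%; lists with fewer than 6 tested members are not drawn. Genes of the cul-6 ligase, pals genes and collagens stand at the top, and lysozymes and vitellogenins at the bottom.

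Transcripts of the cuticle, the collagen coat made by the epidermis, were higher across several families. Of 120 tested numbered collagens (156 in the table) 72 rose and 1 fell (median 0.95), with 70 and 1 without replicate 4. The mean level of the list relative to control was 0.86 to 1.02 (log2) in the 4 hsf-1 libraries, replicate 4 included, and -0.15 to 0.22 in the L4440 libraries. col-104 was at 68.1, 65.9, 57.1, 54.9 and 49.0 FPKM with L4440 and at 172, 203, 242 and 186 FPKM with hsf-1 RNAi, a change of 1.76 ± 0.16 (adjusted p = 1.44e-06). col-97 rose by 1.58 ± 0.15. The exception was col-135, at 2.32 ± 0.935 against 13.1 ± 5.90 FPKM (-2.22 ± 0.42, adjusted p = 0.00204).

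Collagens named for body shape split. Of 13 tested 8 rose and 2 fell. dpy-13, whose mutants are short and stout, went from 153 ± 34.05 to 569 ± 107 FPKM, dpy-5 from 138 ± 35.2 to 481 ± 95.6, and rol-8, whose mutants roll, from 32.1 ± 9.23 to 125 ± 18.2. sqt-3 was at 136, 121, 135.2, 123 and 85.7 FPKM with L4440 and at 273, 254, 339 and 300 FPKM with hsf-1 RNAi (1.29 ± 0.22). The members that fell, named after their values were seen, were dpy-14 and dpy-17. dpy-17 was at 61.6 to 79.4 FPKM with L4440 and at 41.6, 23.5, 12.61 and 54.6 FPKM in hsf-1 replicates 1 to 4 (-1.29 ± 0.38, adjusted p = 0.0368, with the call lost in 10 of 21 alternatives). dpy-14 fell by 1.46 ± 0.38 (adjusted p = 0.0201), a call lost without hsf-1 replicate 2 or 3. Of the 6 furrow collagens, which form the annular rings, dpy-8 and dpy-9 rose, dpy-9 from 7.17 ± 3.02 to 17.8 ± 2.83 FPKM. The dpy-8 call was lost in 9 of 21 alternatives, among them without hsf-1 replicate 1, 2 or 3. dpy-2 and dpy-3 had changes of 0.51 and 0.72 and did not pass.

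Other matrix families followed the collagens in part. Hedgehog-related genes, secreted proteins of the warthog, groundhog and ground-like families that are made largely in epidermis, had 15 of 29 tested members (59 in the table) higher and none lower (median 0.74), among them grl-16 (43.5 ± 6.91 to 122 ± 30.03 FPKM), wrt-6 (1.39 ± 0.22) and grd-14 (1.19 ± 0.19). Of 55 tested abu and pqn genes (70 in the table), which encode glutamine- and asparagine-rich proteins, 20 rose and none fell (median 0.28, and 0.54 without replicate 4). abu-10 went from 5.64 ± 1.33 to 19.2 ± 5.18 FPKM, abu-11 from 7.78 ± 2.04 to 23.4 ± 6.07 and pqn-52 from 109 ± 7.08 to 191 ± 25.7. Of 26 apical matrix and molting genes 6 rose, with the molting gene mlt-8 at 50.9 ± 7.83 against 25.9 ± 4.59 FPKM and the lipocalin gene lpr-6 at 17.9 ± 3.21 against 8.23 ± 2.46. Of 20 cuticlins, non-collagen cuticle proteins, 3 rose, cut-2 from 48.5 ± 4.90 to 113 ± 26.4 FPKM. Summed levels of the 4 epidermis markers were 88.7 to 120 FPKM with L4440, 172 to 227 in hsf-1 replicates 1 to 3 and 121 in replicate 4. Among these markers dpy-7 and rol-6 are collagens themselves, so the sum is not a measure apart from the collagen result. The part of epidermal content in that result was not tested.

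A second group of rising genes is known from the intracellular pathogen response, a transcriptional program that worms mount against microsporidia and the Orsay virus. Of 31 tested pals genes (38 in the table), a family named for a shared protein signature, 19 rose and none fell (median 1.53), and without replicate 4 it was 26 and none (median 1.88). Members such as pals-4, at means of 0.459 FPKM with L4440 and 0.274 with ash-2 RNAi, passed the filter only through libraries with hsf-1 RNAi. Such members had little room to fall, so the filter favoured higher calls among them. pals-4 was at 0.330, 0.391, 0.234, 0.349 and 0.993 FPKM with L4440 and at 17.3, 19.9, 17.9 and 5.76 FPKM with hsf-1 RNAi. All RNAi libraries were above all controls, and replicate 4 was the lowest RNAi library. Its change was 3.95 ± 0.48 (adjusted p = 3.71e-05), and that of pals-39 was 3.75 ± 0.64. The widely used reporter gene pals-5 rose from 0.469 ± 0.187 to 4.17 ± 2.06 FPKM, a call lost without hsf-1 replicate 2 or 3 and under the block by title number. pals-22 and pals-25, which in worms act as brake and activator of this program, did not pass, at 4.09 ± 1.63 against 2.54 ± 0.478 FPKM and 2.30 ± 1.27 against 1.78 ± 0.304. Without replicate 4 pals-22 passed with a change of 0.82 (adjusted p = 0.0485, with 0.000482 to 0.64 over the alternatives). pals-5, pals-22, pals-25 and cul-6 were chosen after their values were seen.

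eol-1, which encodes a homologue of the RNA decapping exonuclease DXO, was at 1.01, 1.25, 0.833, 1.15 and 1.47 FPKM with L4440 and at 62.2, 84.7, 96.8 and 9.74 FPKM with hsf-1 RNAi. The hsf-1 libraries did not overlap with control, but replicate 4 lay well below its partners. The change was 4.88 ± 0.57 (adjusted p = 2.49e-05), and 5.63 without replicate 4. Of the 8 genes of the cul-6 ubiquitin ligase and eol-1 6 rose, and all 8 rose without replicate 4. The Skp1-related adaptors skr-4 and skr-5 went from 16.47 ± 3.40 to 57.1 ± 13.1 and from 1.76 ± 0.503 to 11.9 ± 4.91 FPKM, and the F-box gene fbxa-158 from 0.838 ± 0.203 to 7.22 ± 1.63. The cullin cul-6 itself was at 1.68, 2.36 and 3.85 FPKM in replicates 1 to 3, at 0.107 in replicate 4 and at 0.224 to 0.623 with L4440, and was called only when replicate 4 was left out, alone or with the other few-detected libraries, or under the covariate or array weights (1.81 without replicate 4, adjusted p = 0.163 with all libraries, and 2.18e-05 to 0.467 over the alternatives). At a mean of 0.081 FPKM with ash-2 RNAi, cul-6 too passed the filter only through libraries with hsf-1 RNAi.

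The wider F-box A family, substrate adaptors of such ligases, had 17 of 82 tested members (168 in the table) higher and none lower, and 38 without replicate 4. Here too members such as fbxa-30, at means of 0.108 FPKM with L4440 and 0.0825 with ash-2 RNAi, passed the filter only through libraries with hsf-1 RNAi. In the mean of the family replicate 4 was at -0.39 (log2, relative to control) and replicates 1 to 3 at 0.87 to 1.21. fbxa-163 rose by 3.50 ± 0.41 and fbxa-30 by 3.35 ± 0.38. Of 45 MATH and BATH genes, also ligase adaptors, 7 rose (15.6%, where 7.72% of all tested genes rose and 10.6% were called). Among them bath-46 went from 0.559 ± 0.202 to 7.53 ± 3.35 FPKM. At a mean of 0.178 FPKM with ash-2 RNAi, bath-46 too passed the filter only through libraries with hsf-1 RNAi. The filter favoured higher calls among such members. The RAB-11-related GTPase gene rab-11.2 was listed at 0 in L4440 replicates 1, 3 and 4 and at 0.198 and 0.0704 FPKM in replicates 2 and 5, and was at 13.7, 19.9, 23.9 and 4.73 FPKM with hsf-1 RNAi (4.66 ± 0.34, on log2(FPKM + 0.5), which understates changes of genes so low). Other genes high on the list of changes were the tetraspanin gene tsp-2 (4.16 ± 0.28), ddn-1 (3.95 ± 0.62) and the serpentine receptor gene srw-86 (3.56 ± 0.27).

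**Figure D3:**
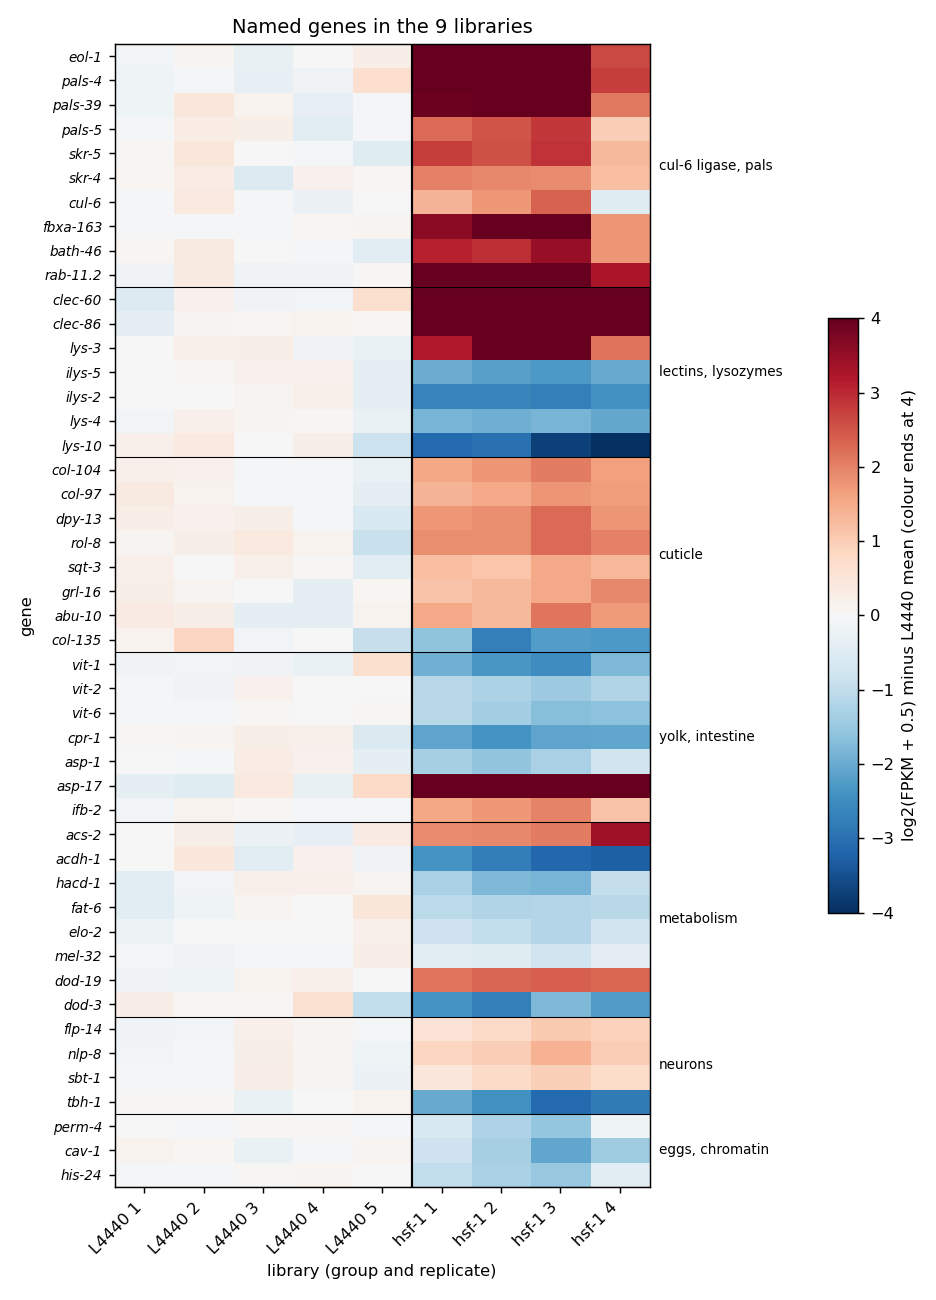
Named genes (rows) in the 9 libraries (columns), coloured by log2(FPKM + 0.5) minus the L4440 mean, red above control and blue below, with colours ending at 4. Genes of the pals and cul-6 group are paler in hsf-1 replicate 4 than in replicates 1 to 3, whereas collagens, vitellogenins and clec-60 are alike in all 4.

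Immune effectors moved in both directions. clec-60, a secreted C-type lectin gene of the intestine known from bacterial infection, was at 2.71, 4.69, 3.71, 3.82 and 6.70 FPKM with L4440 and at 378, 446, 508 and 376 FPKM with hsf-1 RNAi. All 4 RNAi libraries were alike and far above control, a change of 6.51 ± 0.27 (adjusted p = 3.55e-10). clec-86 went from 1.30 ± 0.256 to 76.1 ± 18.5 FPKM. Of 95 tested C-type lectins (228 in the table) 18 rose and 11 fell (median 0.07; 30.5% called, against 10.6% of all tested genes).

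Lysozymes, enzymes that cut bacterial cell walls, fell in the main: 7 of 13 were lower and 1 higher (median -1.21). ilys-2, of the invertebrate type, was at 106, 106, 113, 120 and 81.1 FPKM with L4440 and at 16.09, 15.8, 15.2 and 19.2 FPKM with hsf-1 RNAi, which is a tight group well below control (-2.62 ± 0.13, adjusted p = 1.12e-09). ilys-5 fell by 2.11 ± 0.26, lys-4 by 1.93 ± 0.18, and lys-10 went from 37.7 ± 10.8 to 2.81 ± 1.45 FPKM. The member that rose was lys-3, from 0.851 ± 0.207 to 18.8 ± 12.8 FPKM. Of 58 antimicrobial and saposin-like peptide genes 6 rose and 5 fell, spp-8 among the latter (135.2 ± 18.4 to 63.7 ± 12.56 FPKM). irg-1, an infection response gene, rose from 0.333 ± 0.131 to 2.48 ± 0.855 FPKM. At a mean of 0.126 FPKM with ash-2 RNAi, it passed the filter only through libraries with hsf-1 RNAi and had little room to fall.

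All 6 vitellogenins, lipoproteins that carry yolk from the intestine to oocytes, fell (median -1.66, and -1.74 without replicate 4). The most abundant, vit-2, was at 3326, 3154, 3930, 3507 and 3475 FPKM with L4440 and at 1619, 1449, 1266 and 1501 FPKM with hsf-1 RNAi. No library overlapped between groups, and the change was -1.26 ± 0.30 (adjusted p = 0.0122). vit-6 went from 3039 ± 119.3 to 1121 ± 210 FPKM and vit-1 from 421 ± 124 to 94.6 ± 21.7. vit-3 and vit-4 fell by 1.72 and 1.80, vit-5 went from 1724 ± 213 to 570 ± 83.6 FPKM, and these 3 share much sequence, so their reads can be split between them.

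The intestine, where yolk is made, gave a mixed picture. Of 19 intestine genes 4 rose and 5 fell. The intermediate filament genes ifb-2 (94.7 ± 6.66 to 294 ± 69.5 FPKM) and ifc-2 (44.0 ± 3.44 to 106 ± 11.3), which form the sheath under the brush border, rose. elt-2, the main GATA factor of the gut, rose by 1.37 ± 0.42 (adjusted p = 0.0453) and the gut esterase ges-1 fell by 1.07 ± 0.31 (adjusted p = 0.0364). Both were chosen after their values were seen, and their calls were lost in 11 and 8 of 21 alternatives. Without replicate 4 ges-1 had a change of -0.77 (adjusted p = 0.0839, the highest over its alternatives, with 5.91e-05 the lowest). Summed levels of the 6 intestine markers were 1030 to 1130 FPKM with L4440, 1260 to 1480 in hsf-1 replicates 1 to 3 and 1480 in replicate 4. The markers include ifb-2, elt-2 and ges-1, so the sum is not a measure apart from these genes. The part of intestinal content in the yolk result was not tested.

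Lysosomal and digestive proteases were lower in 10 of 21 cases and higher in 2. The cathepsin B-like gene cpr-1 was at 1122, 1184, 1271, 1243 and 736 FPKM with L4440 and at 254, 207, 251 and 259 FPKM with hsf-1 RNAi (-2.17 ± 0.19, adjusted p = 1.32e-06). cpr-9 fell from 469 ± 46.9 to 198 ± 18.04 FPKM and the aspartyl protease gene asp-1 from 3030 ± 506 to 1282 ± 299. Another aspartyl protease gene, asp-17, moved the opposite way, from 0.866 ± 0.559 to 31.1 ± 4.66 FPKM.

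Metabolic genes changed in part. acdh-1, the acyl-CoA dehydrogenase of the propionate shunt, was at 12.4, 17, 9.39, 14.3 and 11.3 FPKM with L4440 and at 2.01, 1.44, 0.989 and 0.861 FPKM with hsf-1 RNAi (-2.89 ± 0.32, adjusted p = 1.34e-05). Of 52 genes of fatty acid activation and oxidation 6 fell and 1 rose (13.5% called, against 10.6% of all tested genes). hacd-1 (-1.47 ± 0.20) and ech-7 (-1.23 ± 0.21) were among those that fell. The one that rose was the acyl-CoA synthetase gene acs-2, at 7.86 to 12.8 FPKM with L4440 and at 38.6, 39.2, 43.01 and 109 FPKM with hsf-1 RNAi, highest in replicate 4 (2.31 ± 0.31, and 1.95 without it). Of 22 desaturation and synthesis genes 3 fell (13.6%, where 2.91% of all tested genes fell and 10.6% were called). These were the stearoyl-CoA desaturase fat-6 (172 ± 40.6 to 76.0 ± 3.31 FPKM), the elongase elo-2 (163.3 ± 17.4 to 84.7 ± 9.84) and let-767 (-0.52 ± 0.12), the last lost under median-of-ratios scaling.

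Of 20 genes of the methionine cycle and phosphatidylcholine synthesis 4 fell (20.0%, where 2.91% of all tested genes fell and 10.6% were called). These were the serine hydroxymethyltransferase mel-32, the phosphoethanolamine methyltransferase pmt-2 and the adenosylhomocysteinase ahcy-1, each by 0.52, and the S-adenosylmethionine synthetase sams-3 by 0.45 ± 0.14 (adjusted p = 0.0463, lost in 13 of 21 alternatives). Without replicate 4 sams-3 had a change of -0.27 (adjusted p = 0.0862, with 0.00139 to 0.102 over the alternatives). All 4 calls were lost under median-of-ratios scaling. The folate transporter gene folt-2 fell from 21.6 ± 5.03 to 5.42 ± 2.34 FPKM. Of 9 tested dod genes, named as downstream of the insulin-regulated factor DAF-16, 5 rose and 1 fell (66.7% called, against 10.6% of all tested genes). dod-19 went from 98.3 ± 11.1 to 480 ± 37.1 FPKM and dod-3 from 26.1 ± 9.16 to 4.73 ± 1.43. Among those that rose, dod-20 and dod-22 had means of 0.116 and 0.506 FPKM with L4440 and 0.112 and 0.33 with ash-2 RNAi. They passed the filter only through libraries with hsf-1 RNAi and had little room to fall. Among 22 insulin pathway genes and DAF-16 outputs 4 fell (18.2%, where 2.91% of all tested genes fell and 10.6% were called). The metallothionein mtl-2 was 1 of them (38.5 ± 7.23 to 17.4 ± 2.51 FPKM), a call lost under median-of-ratios scaling. Without replicate 4 the list had 2 calls. Among detoxification genes 6 of 54 cytochrome P450, 4 of 54 UDP-glycosyltransferase and 6 of 36 glutathione transferase genes were called (11.1%, 7.41% and 16.7%, against 10.6% of all tested genes), gst-38 from 0.944 ± 0.172 to 8.61 ± 2.90 FPKM. The nearly identical pud-2.1 and pud-2.2 fell by 2.14 and 2.16, with calls lost in 4 and 9 of 21 alternatives, that of pud-2.2 also without replicate 4 (-2.06).

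Neuropeptide genes that were called all rose. Of 30 flp genes 11 rose and none fell (median 0.69), and of 66 nlp genes 12 rose and none fell (median 0.49). The flp count was 4 under median-of-ratios scaling, 5 after quantile normalization and 22 with the covariate, and the nlp count was 9, 8 and 27. flp-14 was at 35.6, 36.5, 45.2, 42.4 and 36.98 FPKM with L4440 and at 57.8, 67.1, 80.6 and 74.0 FPKM with hsf-1 RNAi (0.82 ± 0.18, adjusted p = 0.00685). nlp-8 went from 23.2 ± 2.83 to 49.2 ± 8.38 FPKM, nlp-67 from 4.96 ± 0.660 to 12.9 ± 1.45 and flp-34 from 2.25 ± 0.609 to 6.84 ± 1.88. General neuron genes moved with them in part: 5 of 26 rose and 1 fell (23.1% called, where 7.72% of all tested genes rose and 10.6% were called). Those that rose included sbt-1, a chaperone of peptide processing (0.73 ± 0.17), and the synaptobrevin gene snb-1 (278 ± 12.7 to 374 ± 26.4 FPKM). The calls of flp-14, sbt-1 and snb-1 were lost under median-of-ratios scaling. The summed level of the 11 neuron markers was 473 to 569 FPKM with L4440 and 699 to 807 with hsf-1 RNAi. These markers include snb-1 and sbt-1, so the sum is not a measure apart from them. The part of neuronal content in the neuropeptide result was not tested. Against this stood tbh-1, whose product makes octopamine from tyramine, at 65.3, 65.4, 52.1, 63.3 and 70.1 FPKM with L4440 and 15.2, 11.3, 6.84 and 8.70 FPKM with hsf-1 RNAi (-2.59 ± 0.28). Of 21 insulin-like peptide genes ins-7 and ins-17 rose (9.52%, near the 7.72% of all tested genes), with calls lost in 9 and 13 of 21 alternatives.

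Of 27 oocyte and eggshell genes 3 fell (11.1%, where 2.91% of all tested genes fell and 10.6% were called). The count was 1 under median-of-ratios scaling, 6 after quantile normalization, 8 with the covariate, 8 in a fit of the 9 compared libraries alone and 22 with array weights. The summed level of the 5 oocyte markers was 3300 to 4000 FPKM with L4440, 2810 to 3020 in hsf-1 replicates 1 to 3 and 4000 in replicate 4, and that of the 5 germline markers was 923 to 1090, 800 to 911 and 905 FPKM. Their part in these results was not tested. Those that fell were the caveolin gene cav-1 (109 ± 12.18 to 42.4 ± 14.8 FPKM) and the eggshell permeability barrier genes perm-2 and perm-4. perm-4 was at 1061 to 1164 FPKM with L4440 and at 726, 469, 379 and 994 FPKM with hsf-1 RNAi, so that replicate 4 lay close under the controls (-0.90 ± 0.21, and -1.14 without it). Both perm calls were lost under median-of-ratios scaling, and that of perm-2 also without hsf-1 replicate 2 or 3. mex-5, an RNA-binding polarity factor, was called in 7 of 21 alternatives but not with the settings used here (-0.37 ± 0.12, adjusted p = 0.0595, with 8.48e-06 to 0.508 over the alternatives). Without replicate 4 mex-5 passed with a change of -0.47 (adjusted p = 0.0124). Of 10 embryonic fate factors 2 fell (20.0%, where 2.91% of all tested genes fell and 10.6% were called). These were ceh-51 (1.77 ± 0.513 to 0.498 ± 0.400 FPKM) and pal-1, the latter lost in 11 of 21 alternatives, among them without replicate 4 (-0.59 ± 0.18, and -0.36 without it). his-24, a linker histone variant, was at 238, 239, 260, 270 and 245 FPKM with L4440 and at 127, 102, 87.9 and 185 FPKM with hsf-1 RNAi (-1.05 ± 0.17). Of 66 histone genes 13 rose, his-38 from 4.04 ± 0.831 to 8.79 ± 1.02 FPKM, and 2 fell. After quantile normalization 1 rose and 1 fell, and with array weights 19 rose and 18 fell. Histone genes are near-identical copies, and their mRNAs mostly lack a poly(A) tail, so these levels are uncertain. None of 29 germline and meiosis genes was called, but 11 fell with the covariate.

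Major sperm protein transcripts had ranges above control, and how many passed depended on the settings. Of 30 major sperm protein genes, which drive the crawling of nematode sperm, 28 had hsf-1 ranges above L4440 (10.5% of all tested genes had, and 17.4% had ranges apart in either direction), but 1 was called, with a median of 0.72, and 0.48 without replicate 4. The count was 17 in a fit of the 9 compared libraries alone, 19 with the covariate and 29 with array weights. msp-77 was at 111 to 122 FPKM with L4440 and at 199, 161, 171 and 286 FPKM with hsf-1 RNAi, highest in replicate 4 (0.77 ± 0.25, adjusted p = 0.0568). The sperm phosphatase gene gsp-3 was at 62.1 ± 14.99 against 36.0 ± 1.55 FPKM (adjusted p = 0.0521). The summed level of the 33 sperm markers was 2670 to 2870 FPKM with L4440, 3650 to 4220 in hsf-1 replicates 1 to 3 and 7650 in replicate 4. These markers are the major sperm protein genes themselves with gsp-3 and gsp-4.

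Several large machines had few or no called members at the settings used here. None was called among 33 proteasome subunits, 20 V-ATPase subunits, 38 genes of oxidative phosphorylation and 15 COMPASS subunits and H3K4 demethylases. The last list had a median of -0.42 with replicate 4 and -0.07 without. Of 79 ribosomal protein genes 1 was called (median 0.31), of 37 body wall muscle genes 1, and of 43 small RNA genes 2. With the covariate 12 of the COMPASS list and 18 of the small RNA genes fell and 33 ribosomal protein genes rose, and with array weights 23 ribosomal protein genes rose and 7 genes of oxidative phosphorylation fell. unc-54, whose promoter drives the transgene and whose reads could include transgene ends, had a level of 428 ± 94.96 FPKM (control 314 ± 29.1), short of the threshold (adjusted p = 0.0812). Of 27 autophagy genes only sqst-1 rose, which encodes the p62 receptor for ubiquitinated cargo, from 41.3 ± 3.85 to 83.2 ± 21.4 FPKM.

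The same RNAi was also given on top of ash-2 RNAi, in 8 libraries that share none with this comparison, though all 17 share one estimate of spread. There 2061 genes were called (15.8%), 1569 higher (12%) and 492 lower (3.76%), and the median change of all tested genes was 0.27. Quantile normalization turned this balance to 963 higher and 1314 lower, and the covariate to 1467 higher and 2081 lower. The 4 ash-2 libraries held 9401 to 11189 genes at an FPKM of 1 or more and the 4 with both RNAi 10591 to 12712, and the part of this difference in the result was not tested. Both comparisons called 925 genes, 66.5% of the hsf-1 calls without ash-2 RNAi and 44.9% of those with it, and 916 of the 925 changed in the same direction. clec-60, hsp-17, eol-1 (5.07), dnj-13 (-0.58), col-97 (1.71), tbh-1 (-1.76) and all 6 vitellogenins (-1.22 to -1.53) were called there with the same sign. Of the 9 heat-inducible genes none was called there either, with a median of 0.63, and hsp-16.48 had a change of 0.63 ± 0.53. Of the 6 furrow collagens dpy-8 and dpy-9 rose in both backgrounds, while dpy-2 and dpy-3 fell on top of ash-2 RNAi by 0.77 and 1.24 (median of the 6 -0.71; limma, adjusted p = 0.0326 and 0.0103). The difference between backgrounds was not called for dpy-2 or dpy-3 (adjusted p = 0.239 and 0.144). On top of ash-2 RNAi hsp-1 and hsp-90 fell by 0.79 and 1.02, and the difference from the change without it did not pass for either (interaction -0.33 ± 0.26 and -0.56 ± 0.32, adjusted p = 0.698 for both). Of the 30 major sperm protein genes 29 rose there (median 2.28), but for msp-77 the difference between both backgrounds did not pass (adjusted p = 0.29).

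The difference between backgrounds was tested directly as an interaction, which called 14 genes (0.107% of those tested), 2 with a higher (0.0153%) and 12 with a lower change on top of ash-2 RNAi (0.0917%). At an unadjusted p under 0.05 it was 833. Of the genes named here, 5 were among them. sqt-3 rose without ash-2 RNAi and fell on top of it by 1.14 ± 0.23, from 431 ± 121 FPKM with ash-2 RNAi to 198 ± 58.7 with both (interaction adjusted p = 0.00587). cut-2 (adjusted p = 0.0138), lpr-6 (0.0138) and lpr-3 (0.0445; chosen after its values were seen) did the same. ilys-2 fell in both backgrounds, but by 1.32 ± 0.14 on top of ash-2 RNAi, where it went from 114 ± 14.04 to 45.3 ± 2.66 FPKM (interaction adjusted p = 0.0138).

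**Figure D4:**
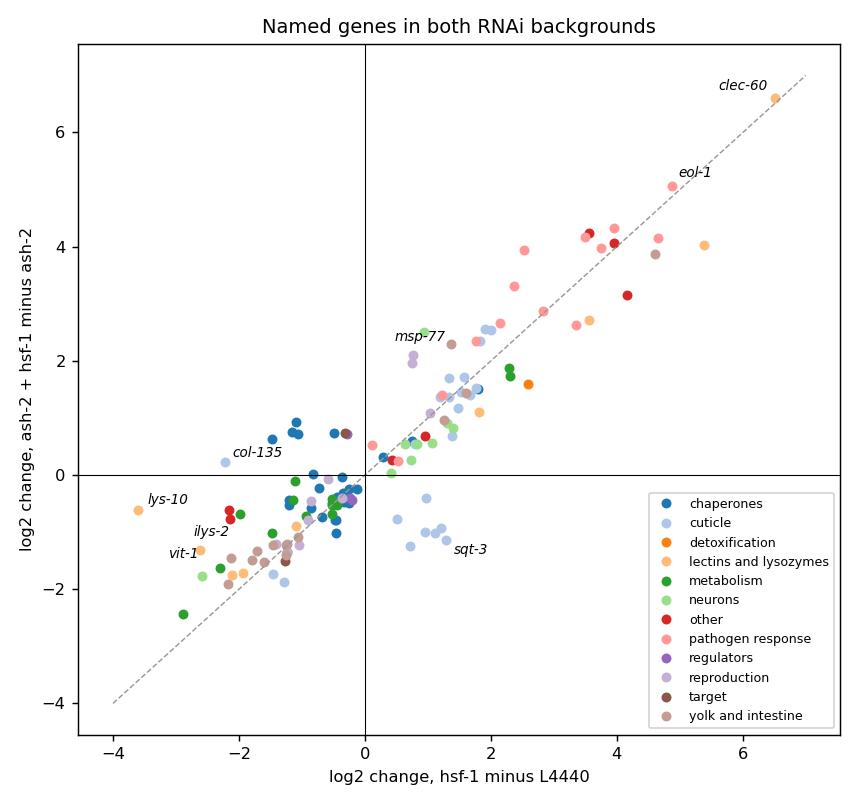
Log2 change of each named gene with hsf-1 RNAi against L4440 (horizontal) and with ash-2 + hsf-1 RNAi against ash-2 RNAi (vertical), coloured by group, with the dashed line where both are equal. Most genes lie near the line, while sqt-3 and 6 other cuticle genes lie at the lower right, above 0 on the horizontal and below 0 on the vertical axis. Genes such as hsp-16.48, hsp-16.1 and col-135 lie at the upper left, with the opposite signs.

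In the authors' deposited table of this comparison, 1693 genes carry a mark of significance, 1214 higher and 479 lower. Every mark in the authors' deposited table goes with a q-value below 0.05 and a log2 fold change of 1 or more in size, and 0 genes that meet both lack it. Of the marked genes, 1381 were tested here and 967 were called, all 967 in the direction of the authors' deposited table.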

How the data were processed

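The authors deposited FPKM per gene for 17 libraries; cutadapt, HISAT2, StringTie and DESeq2 with build WBcel235 are named in the submitters' processing notes, with versions and roles not given in the sources used here. FPKM divides by library total, so a few abundant genes can shift all others; depth is unknown. The authors also deposited log2 fold changes and a q-value per gene for this comparison. Of 26786 genes, 26780 matched RefSeq's WBcel235 gene table, used for coordinates.

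Values were taken as log2(FPKM + 0.5) and all 17 libraries, in 4 groups, were fitted with limma 3.58.1 in R 4.3.3 (eBayes with trend and robust settings), tested on simulated data. p was adjusted by Benjamini-Hochberg over 13084 genes, with 0.05 as the limit for a call; rose, fell, higher and lower mean called. Levels are mean ± SD, changes ± SE. The targets were tested by exact permutation. Tables and tests used Python 3.11.15, pandas 2.3.3, numpy 2.4.6, scipy 1.17.1 and matplotlib 3.10.9.

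Genes named are hsf-1 and ash-2, the 12 highest and 12 lowest called genes with a symbol, a mean of at least 10 FPKM in the higher group and ranges that do not overlap, up to 4 members per list with the smallest adjusted p, and all tested members of 5 short lists; the text names a selection. Members and lists were chosen with earlier results of these data known. Replicate numbers are those of the titles; for hsf-1 replicate 4 the column is numbered 5. Alternatives covered pseudocount, filter, scaling, covariate, weights, block and left-out libraries.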

Additional observations from a re-analysis of the deposited data

Results flagged for a closer look

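A sample far from the others of its group was looked for in 266 groups of values, and 16 were found; chance alone flags about 1 in 20 such groups. In hsf-1 replicate 4 these were the number of genes at an FPKM of 1 or more (10745), low ash-2 (5.57 FPKM), low hsp-17 (49.1), low gst-38 (4.27) and high acs-2 (109). Other hsf-1 libraries stood apart at hsp-60 (91.4 FPKM in replicate 3, low), cpr-1 (207 in replicate 2, low) and ins-17 (28.6 in replicate 3, high). L4440 replicate 5 stood apart at pals-4 (0.993 FPKM, high), pqn-52 (121, high), vit-1 (642, high), vit-3 (1080, high), cpr-1 (736, low) and mel-32 (315, high). L4440 replicate 3 was high at hsb-1 (142 FPKM), and replicate 1 low at clec-86 (0.849 FPKM).

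The change with hsf-1 RNAi differed between both backgrounds, tested as an interaction, at 14 genes. The change on top of ash-2 RNAi minus the change without it was -2.42 for sqt-3, -2.13 for cut-2, -2.12 for lpr-6, -1.93 for lpr-3 and 1.31 for ilys-2 (limma, adjusted p = 0.00587 to 0.0445).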

How the results depend on the processing

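The hsf-1 against L4440 count (1391; 1010 higher, 381 lower) became 2157 (994 lower) after quantile normalization, 5181 (1837 and 3344) with detected genes as covariate, 5582 (4190 and 1392) with array weights, 2867 (2336 higher) without the 4 libraries with few detected genes and 878 with a fold minimum; a filter at 5 FPKM left 663 higher. Leaving out 1 library gave 845 (without hsf-1 replicate 3) to 1877 calls, 629 to 1512 higher and 216 (also without hsf-1 replicate 3, and 253 without replicate 2) to 365 lower among the 9 libraries compared, and 530 lower without ash-2 + hsf-1 replicate 4. The replicate block by title number gave 1072 calls and that by column number 1687; deviations of same-numbered hsf-1 and L4440 libraries correlated at 0.367, 0.428, -0.0887 and 0.157 by title (0.352 for the last by column), so the numbers were not taken as pairs, and not every library correlated best with its own number. For ash-2 + hsf-1 against ash-2 (2061 calls) the count was 1256 with the filter at 5 FPKM, 3548 with the covariate and 4708 with array weights. The interaction (14 genes) gave 9 at a pseudocount of 0.1, 8 without filter, 26 and 78 after median-of-ratios and quantile scaling, 196 with the covariate, 5 without the 4 libraries, 7 and 15 with the replicate block by title and by column number, 1144 with array weights and 4 to 10 with 1 library left out. The cause of these shifts was not tested. The hsf-1 level with 1 library left out was 11.6 to 14.2 FPKM, below control each time, but 8 libraries cannot pass there (adjusted exact permutation p = 0.0571 to 0.0714). The median change of all genes was -0.03, and 0.02 under median-of-ratios scaling, -0.08 after quantile normalization and -0.14 with the covariate. It was 0.17 with array weights, and 0.18 both without hsf-1 replicate 4 and without the 4 libraries with few detected genes.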
